A study of Homo sapiens with 4 samples.

Results

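A set of 10 genes of the Notch pathway was followed in H1299 cells, a long-established line from a human non-small-cell lung carcinoma, with the receptors NOTCH1, NOTCH2 and NOTCH3, the ligands JAG1, JAG2 and DLL1, the ligand ubiquitin ligases MIB1 and MIB2, and the target genes HES1 and HEY1. These 10 of 61852 genes were chosen by symbol, with the differences between CASM34 and p53WT in these same libraries already known, so every difference given for them is a description and carries no test. RNA was sequenced after poly(A) selection from 4 libraries, 2 of cells expressing p53WT and 2 of cells expressing CASM34, all on the p53-/- background of this line. The title of the series places CASM34 among synonymous p53 mutations found in cancer and concerns the DNA damage response. The labels name no treatment, no vector, no clone and no time after the start of expression, and do not state whether both libraries of a group were grown as separate cultures. No library without p53 was analysed here. Each p-value below therefore sets the difference between the groups against the spread between libraries of a group, which may be technical.

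Notch receptors are single-pass membrane proteins that are switched on by ligands of the Jagged and Delta-like families on neighbouring cells. Mind bomb ligases attach ubiquitin to the ligand, whose endocytosis pulls on the bound receptor and exposes it to cleavage by ADAM proteases and then by gamma-secretase. The freed intracellular domain enters the nucleus, joins the DNA-binding protein RBPJ (also called CSL) and Mastermind proteins, and activates HES and HEY genes, which encode transcriptional repressors. In epithelial cells, NOTCH1 is known as a gene that p53 can activate.

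Promoter sequences from RefSeq on GRCh38.p14, covering 250 bases before to 50 after the annotated start, were matched for 8 of the 10 genes. HES1 is shown because it is the classical Notch target in the set. Its window, chr3:194135898-194136197 on the plus strand, held the CSL core TGGGAA at -84 and -70 relative to the start, in capitals here. None of the other 7 windows held these letters on either strand, and 24.3% of 27305 promoters of this length did.
HES1: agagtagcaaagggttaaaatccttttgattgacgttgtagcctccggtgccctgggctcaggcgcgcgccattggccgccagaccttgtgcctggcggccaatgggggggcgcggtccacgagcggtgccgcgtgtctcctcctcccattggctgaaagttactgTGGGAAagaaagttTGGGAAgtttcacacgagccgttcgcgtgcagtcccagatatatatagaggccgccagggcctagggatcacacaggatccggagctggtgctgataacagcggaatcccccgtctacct

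NOTCH1 and MIB2 are shown as genes with higher counts in CASM34, and MIB1 as the paralog of MIB2 without such a difference. Capitals mark the GC box GGGCGG on either strand, which 44.6% of the 27305 promoters held. The windows lie at chr9:136545999-136546298 on the minus strand (NOTCH1), chr1:1615250-1615549 on the plus strand (MIB2) and chr18:21740542-21740841 on the plus strand (MIB1). They follow RefSeq starts, which can differ from the GENCODE 29 gene limits given below. In GENCODE 29, NOTCH1 begins at 136545786 on the minus strand and MIB1 at 21704957 on the plus strand.
NOTCH1: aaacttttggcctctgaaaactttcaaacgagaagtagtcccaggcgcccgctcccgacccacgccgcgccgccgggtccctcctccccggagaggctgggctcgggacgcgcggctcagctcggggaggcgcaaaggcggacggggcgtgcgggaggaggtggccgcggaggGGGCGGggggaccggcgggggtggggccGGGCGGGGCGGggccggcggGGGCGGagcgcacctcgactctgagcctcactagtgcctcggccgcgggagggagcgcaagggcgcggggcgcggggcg
MIB2: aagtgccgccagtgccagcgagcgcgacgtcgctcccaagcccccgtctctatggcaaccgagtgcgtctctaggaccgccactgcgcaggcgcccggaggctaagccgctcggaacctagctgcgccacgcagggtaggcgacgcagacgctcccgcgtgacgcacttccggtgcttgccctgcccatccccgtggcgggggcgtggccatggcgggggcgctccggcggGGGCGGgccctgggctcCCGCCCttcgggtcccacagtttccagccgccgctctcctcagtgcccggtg
MIB1: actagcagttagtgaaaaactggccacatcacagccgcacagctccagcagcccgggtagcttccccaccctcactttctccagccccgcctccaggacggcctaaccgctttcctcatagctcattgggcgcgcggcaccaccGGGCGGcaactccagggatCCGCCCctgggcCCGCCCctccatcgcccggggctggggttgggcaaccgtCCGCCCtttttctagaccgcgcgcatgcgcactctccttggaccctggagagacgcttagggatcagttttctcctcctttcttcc
GC content was 77.0% in the NOTCH1 window, 73.3% in that of MIB2, 64.0% in that of MIB1 and 59.0% in that of HES1, against a median of 58.3% over all promoters. The GC box occurred 4 times for NOTCH1, 2 times for MIB2, 4 times for MIB1 and 0 times for HES1, and overlapping matches were counted separately. The p53 half-site consensus was found in none of the 8 windows on either strand and in 6.54% of all promoters. A match or its absence describes letters in this window only.

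The libraries held 18086983 to 26906095 estimated fragments each, with 21595 to 22504 genes at 1 or more. KRT8, KRT18 and VIM, an epithelial and mesenchymal mixture known for this line, were abundant in every library (420 TPM or more each), where TPM is a transcript level scaled for gene length and for the library total. Lung lineage markers (NKX2-1, SFTPC, SFTPB, SCGB1A1, EPCAM, CDH1) were at most 0.83 TPM and leukocyte and endothelial markers at most 0.49 TPM. Summed over 4 fibroblast markers the level came to 1.40 and 5.91 TPM in p53WT and to 0.85 and 4.54 TPM in CASM34, and its part in the results was not tested. Mitochondrially encoded genes took 1.44% and 1.09% of fragments in p53WT and 1.81% and 1.45% in CASM34, and their part was not tested either. In these bulk samples, fewer cells that express a gene and less RNA per cell cannot be told apart.

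All 10 genes were expressed. Averaged over the 4 libraries, MIB2 was the highest at 33.7 TPM, followed by JAG2 at 26.6, HES1 at 25.9, NOTCH2 at 14.6, JAG1 at 13.6, MIB1 at 10.1, NOTCH1 at 4.65, NOTCH3 at 4.56, HEY1 at 4.46 and DLL1 at 1.64 TPM. In this order the ranges over the 4 libraries overlapped between MIB2 and JAG2, between JAG2 and HES1, between NOTCH2 and JAG1, and among NOTCH1, NOTCH3 and HEY1. Compared within each library, MIB2 was above JAG2 in all 4, most narrowly in p53WT replicate 2, at 27.7 against 27.3 TPM. The order of the other neighbours changed between libraries, so they are not separated. The steps from HES1 to NOTCH2, from JAG1 to MIB1, from MIB1 to NOTCH1 and from HEY1 to DLL1 were larger than the spread between libraries. NOTCH2 supplied 58.3% to 64.5% of the summed TPM of the 3 receptors in every library, and that sum lay between 23.4 and 24.1 TPM in all 4.

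**Figure D1:**
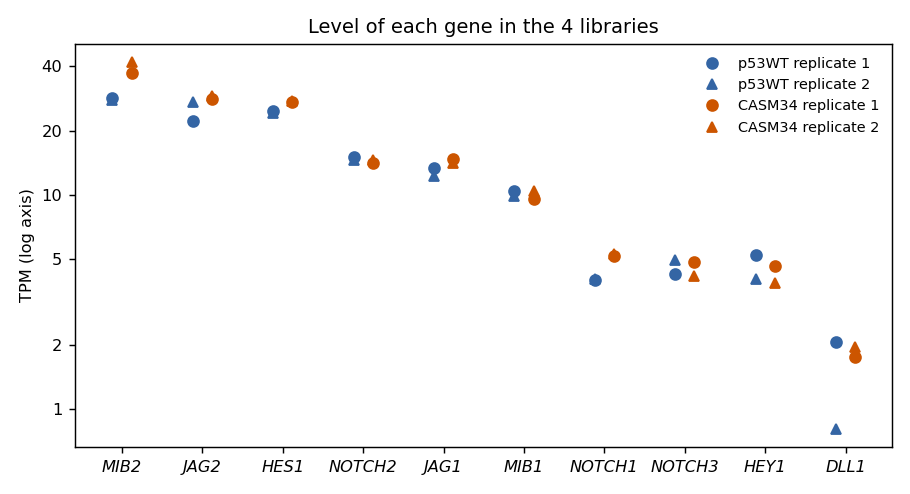
TPM of each of the 10 genes (log axis) in the 2 p53WT and 2 CASM34 libraries, 1 point per library, genes ordered by mean. MIB2 and NOTCH1 lie higher in both CASM34 libraries, while the libraries of NOTCH3, HEY1, MIB1 and DLL1 overlap between groups.

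Counts of NOTCH1, NOTCH3, JAG2 and MIB2 were higher in cells with CASM34, by 1.24-fold to 1.47-fold. These 4 lay past the threshold applied to all genes (edgeR quasi-likelihood test, Benjamini-Hochberg adjusted p under 0.05), as did 1.61% of the 15965 genes tested in the upward and 0.345% in the downward direction. All 10 genes passed the filter on low counts, and 6 were not past the threshold. CPM is the count scaled to the library total, adjusted by edgeR's TMM factor. The groups did not overlap in CPM for 7 genes with CASM34 higher, where 24.5% of tested genes had this order, and for 1 gene with CASM34 lower, where 23.4% did. Since this contrast was known when the genes were picked, nothing is read from these counts. The median log2 fold change of CASM34 over p53WT was 0.24 over the 10 genes and 0.00 (-0.000547) over all tested genes.

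Among the receptors, NOTCH1 and NOTCH3 had higher counts in CASM34 and NOTCH2, the most abundant receptor transcript, did not. NOTCH1 (ENSG00000148400.13, GRCh38 chromosome 9, 136494433 to 136545786, minus strand, with coordinates from GENCODE 29) was at 29.3 and 28.7 CPM in p53WT and 37.6 and 35.4 CPM in CASM34. Both CASM34 libraries were above both p53WT libraries, and the log2 fold change was 0.33 (SE 0.07). In TPM the gene lay at 4.02 and 4.07 against 5.19 and 5.31, so both units gave the same order. An offset that took out how each library depended on GC content and length left the NOTCH1 difference at 0.06 (SE 0.07).

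NOTCH3, the receptor known for its role in vascular smooth muscle (ENSG00000074181.9, chromosome 19, 15159038 to 15200981, minus strand), was higher in CASM34 in one unit and overlapped between groups in the other. In CPM it was at 20.07 and 20.01 in p53WT and at 31.1 and 27.6 in CASM34, a log2 fold change of 0.56 (SE 0.08), the highest of the 10. In TPM it was at 4.27 and 4.95 in p53WT and at 4.87 and 4.16 in CASM34, and the groups overlapped. RSEM, the program that assigned the fragments, gave NOTCH3 a mean transcript length of 5942 and 5069 bases in p53WT and of 7842 and 8169 bases in CASM34. More fragments on longer transcript models thus came out as the same TPM. In an edgeR fit with an offset for this length, NOTCH3 lay at -0.03 (SE 0.13), and with the offset for GC content and length trends at 0.33 (SE 0.08).

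The length values of NOTCH3 were known before it was singled out. Because TPM divides by effective length, they are also not independent of the CPM and TPM values above. The groups did not overlap, and the mean was 1.45-fold longer in CASM34. Of all tested genes 1.69% had lengths that did not overlap and a mean at least 1.25-fold longer in CASM34. An exact two-sided permutation test of 2 libraries against 2 cannot give less than p = 0.333, so it was not informative. In GENCODE 29, NOTCH3 has 6 transcript models, and the longest, a coding model, has 8666 bases. The next, also coding, has 3858 bases, and the remaining 4 have 558 to 748 bases. Transcript levels were not analysed here, so which models carry the difference in length was not tested.

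NOTCH2 (ENSG00000134250.21, chromosome 1, 119911553 to 120069626, minus strand) was at 140 and 135 CPM in p53WT and at 132 and 134 CPM in CASM34. The CASM34 libraries were the lower ones by a small margin, and the log2 fold change was -0.05 (SE 0.05). Its counts were fractional in all 4 libraries, and it shares sequence with the NOTCH2NL genes, partial copies of NOTCH2. NOTCH2NLA, NOTCH2NLB, NOTCH2NLC and NOTCH2NLR together had 11.6% as many fragments as NOTCH2 over the 4 libraries, so the split between them is uncertain.

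**Figure D2:**
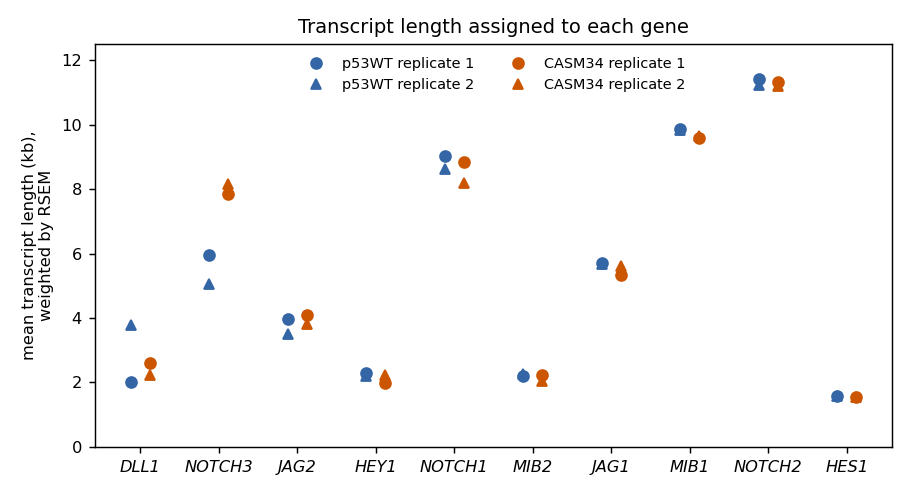
Mean transcript length in kilobases that RSEM assigned to each gene in each library, 1 point per library, genes ordered by the ratio of the longest to the shortest value. NOTCH3 is longer in both CASM34 libraries, and DLL1 differs most within the p53WT group, from 2016 to 3779 bases.

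Of the ligands, JAG2 had higher counts in CASM34, and JAG1 and DLL1 were not past the threshold. JAG2 (ENSG00000184916.9, chromosome 14, 105140981 to 105168824, minus strand) was at 67.7 and 74.2 CPM in p53WT and at 90.4 and 85.6 CPM in CASM34, with no overlap and a log2 fold change of 0.31 (SE 0.06). In TPM p53WT replicate 2 lay close to the CASM34 libraries, at 27.3 against 28.1 and 28.96, while p53WT replicate 1 was at 22.2. The GC and length offset left JAG2 at 0.07 (SE 0.06). JAG2 shares 469 exonic bases with the noncoding gene AL512356.1 on the same strand, which took 6.76 fragments in 1 library and 0 in the other 3.

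JAG1 (ENSG00000101384.12, chromosome 20, 10637684 to 10673999, minus strand) was at 59.98 and 56.0 CPM in p53WT and at 62.8 and 63.7 CPM in CASM34. The CASM34 libraries were slightly higher without overlap, with a log2 fold change of 0.13 (SE 0.06) and of 0.10 (SE 0.05) with the GC and length offset. DLL1 (ENSG00000198719.9, chromosome 6, 170282206 to 170306565, minus strand) was the least abundant of the 10, with 64.0 and 61.6 estimated fragments in p53WT and 91.0 and 58.0 in CASM34. In CPM it was at 2.95 and 2.40 in p53WT and at 3.41 and 3.18 in CASM34, a log2 fold change of 0.31 (SE 0.21). In TPM the p53WT libraries of DLL1 stood at 2.06 and 0.81 on nearly equal fragment numbers. RSEM gave these libraries lengths of 2016 and 3779 bases, and the groups overlapped (CASM34 at 1.75 and 1.94 TPM).

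The Mind bomb ligases differed from each other. MIB2 (ENSG00000197530.13, chromosome 1, 1615415 to 1630610, plus strand) was at 44.7 and 46.2 CPM in p53WT and at 61.3 and 61.8 CPM in CASM34. The libraries of each group lay close together and the groups far apart, with a log2 fold change of 0.44 (SE 0.05). In TPM MIB2 was at 28.4 and 27.7 against 37.2 and 41.7. Its paralog MIB1 (ENSG00000101752.13, chromosome 18, 21704957 to 21870957, plus strand), the main ligase for Notch ligands in development, was at 82.6 and 80.1 CPM in p53WT and at 75.3 and 82.3 CPM in CASM34. The groups overlapped and the log2 fold change was -0.05 (SE 0.05), turning to 0.02 without CASM34 replicate 1. The TPM ratio of MIB2 to MIB1 stood at 2.74 and 2.79 in the p53WT libraries, against 3.88 and 3.995 in those of CASM34. Under the GC and length offset MIB2 lay at 0.11 (SE 0.05) and MIB1 at -0.01 (SE 0.05). MIB2 overlaps the antisense gene AL691432.2 over 219 exonic bases, and that gene took 43 and 80 fragments in p53WT and 111 and 58 in CASM34. The strand setting of the counting is not given in the sources used here, so reads of this stretch cannot be told apart.

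Both target genes were expressed and neither was past the threshold. HES1 (ENSG00000114315.4, chromosome 3, 194136145 to 194138732, plus strand) was at 26.0 and 26.1 CPM in p53WT and at 29.2 and 29.4 CPM in CASM34. The libraries of a group were nearly equal and the groups did not overlap, with a log2 fold change of 0.17 (SE 0.07). HES1 lay at 0.17 (SE 0.07) with the GC and length offset and at 0.16 (SE 0.09) with the effective length offset. HEY1 (ENSG00000164683.18, chromosome 8, 79764010 to 79767863, minus strand) was at 8.61 and 6.50 CPM in p53WT and at 6.67 and 6.36 CPM in CASM34. Its high library was p53WT replicate 1 and the groups overlapped, with a log2 fold change of -0.20 (SE 0.16).

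The 4 genes past the threshold were the 4 with the highest GC content. Transcript GC content was 68.3% for MIB2, 65.0% for NOTCH1, 64.1% for JAG2 and 63.1% for NOTCH3. It was 59.7% for DLL1, 50.7% for HES1, 50.6% for JAG1, 49.8% for NOTCH2, 49.3% for HEY1 and 39.4% for MIB1. Across these 10 genes, which share the same 4 libraries, the Pearson correlation of GC content with log2 fold change was 0.84 and the Spearman correlation 0.87. Over all genes tested, the 2461 at 60% GC or more had a median log2 fold change of 0.17, with 196 higher and 2 lower, and the 13234 under 60% had a median of -0.02, with 60 higher and 52 lower. The dependence on GC was fitted to each library's deviation from the gene's mean log2 CPM over the 4 libraries. Per 10 percentage points of GC, this deviation changed by -0.0574 and -0.0567 in the p53WT libraries and by 0.0732 and 0.0409 in those of CASM34. Such slopes compare the libraries with each other and do not give how levels depend on GC within a library. With that trend and the length trend removed, 0 of the 10 genes lay past the threshold in edgeR, and the median of the 10 was 0.09. Of all 15695 genes in that fit, 24 were higher and 21 lower, and NOTCH3 was at 0.33 (SE 0.08). The slopes were below 0 in both p53WT libraries and above 0 in both CASM34 libraries. This offset therefore removes any difference between the groups that follows GC content. A technical trend and an effect of CASM34 cannot be told apart here, and neither was tested.

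**Figure D3:**
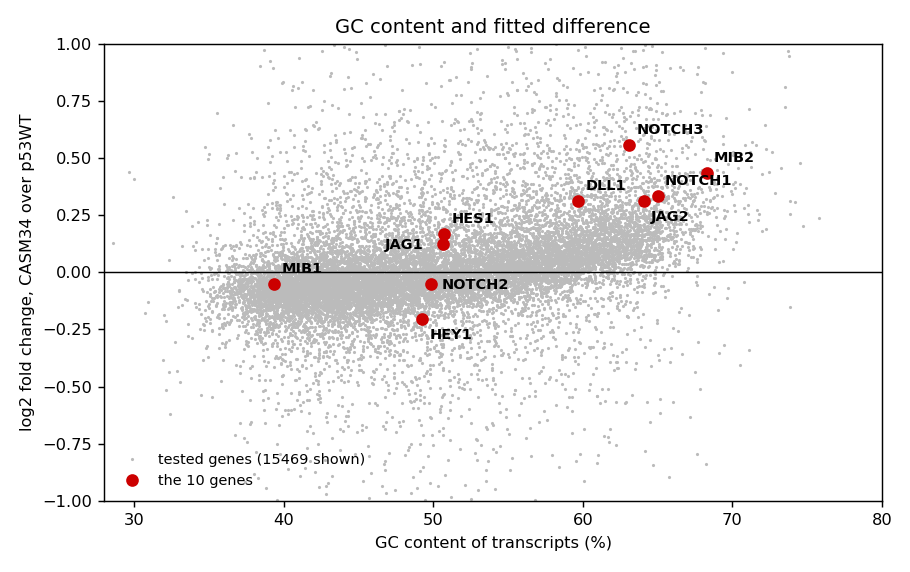
GC content of transcripts in percent against the log2 fold change of CASM34 over p53WT for 15469 tested genes (grey, 226 genes beyond the axis not drawn) and the 10 genes (red). NOTCH1, NOTCH3, JAG2 and MIB2 sit at 63.1% to 68.3% GC, where most grey points also lie above 0.

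**Figure D4:**
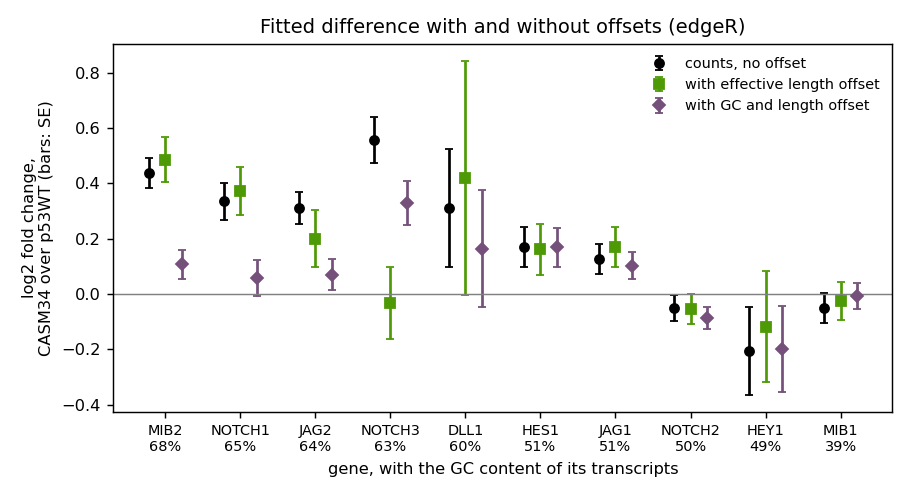
Log2 fold change with its SE for the 10 genes, ordered by GC content, from edgeR on counts, with an offset for effective length and with an offset for GC and length trends. HES1 keeps nearly the same value in all 3 fits, MIB2, NOTCH1 and JAG2 approach 0 with the GC and length offset, and NOTCH3 approaches 0 with the effective length offset.

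At the adjusted threshold, the wider pathway was called at about the rate of all genes. Of 62 further genes in 7 role groups, 59 were tested, 1 rose, 0 fell and 58 did not pass (edgeR). Of all tested genes 1.61% rose and 0.345% fell. An unadjusted edgeR p under 0.05 was more frequent in the pathway in this fit, at 15 of the 59 against 2734 of all 15965 genes tested. In DESeq2 the numbers were 11 of the 59 against 1393 of 15965. With the GC and length offset they were 7 of the 59 against 1975 of 15695, and with the effective length offset 7 against 1901 of 15965. The pathway share was thus close to that of all genes with either offset. The median log2 fold change of the 59 was 0.02. The gene that rose was HES6, which encodes a HES family protein that counteracts HES1. It went from 42.9 and 44.4 CPM in p53WT to 52.99 and 52.3 CPM in CASM34, which is 0.27 on the log2 scale (SE 0.06, edgeR adjusted p = 0.0309). The size of the HES6 difference was similar without p53WT replicate 1 (0.24, edgeR adjusted p = 0.201), without p53WT replicate 2 (0.30, edgeR adjusted p = 0.0855) and in DESeq2 (0.27, adjusted p = 0.104), although it did not pass there. With a library left out, the lone library of its group is assumed to vary like the other group. The sign of HES6 changed under the GC and length offset, to -0.07 (edgeR adjusted p = 0.623).

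The group listed as other target genes, which includes HES6, lay above 0 for all 7 tested, with a median of 0.30. Whether Notch activates each of them in these cells was not tested. HES4 was at 0.31 (SE 0.08, edgeR adjusted p = 0.0772), and NRARP, a feedback inhibitor of Notch, at 0.30 (SE 0.09, edgeR adjusted p = 0.117). HES5, a neural Notch target, had 0 fragments in every library. With the GC and length offset 3 of the 7 lay above 0 and the median was -0.01, with HES4 at -0.14 and NRARP at -0.01. GC content was 74.2% for HES4, 69.6% for HES6 and 67.3% for NRARP.

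Among further receptors and ligands 0 of 4 tested genes passed in edgeR. NOTCH4 lay at 0.24 (SE 0.21, edgeR adjusted p = 0.608), while the Delta-like homologue DLK1 was at 0.41 (SE 0.28, edgeR adjusted p = 0.487). Its relative DLK2 had a value of 0.17 (SE 0.12, edgeR adjusted p = 0.516). DLK1 moved to 0.86 without p53WT replicate 1 and to 0.04 without p53WT replicate 2, and NOTCH4 to 0.09 and 0.42. DLL4, a ligand of endothelium, was too low to test, at 0.07 TPM on average in each group.

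Of 8 genes for receptor glycosylation, 0 passed in edgeR. The Fringe genes RFNG and LFNG, whose enzymes extend O-fucose on Notch and shift its choice of ligand, had values of 0.25 (SE 0.06, edgeR adjusted p = 0.0531) for RFNG and 0.41 (SE 0.15, edgeR adjusted p = 0.188) for LFNG. EOGT lay at -0.12 (SE 0.07, edgeR adjusted p = 0.428). Of 9 genes for receptor cleavage, 0 passed in edgeR. The gamma-secretase genes NCSTN and PSEN2 had values of 0.09 (SE 0.05, edgeR adjusted p = 0.398) for NCSTN and 0.17 (SE 0.13, edgeR adjusted p = 0.559) for PSEN2, and the convertase gene FURIN at 0.08 (SE 0.05, edgeR adjusted p = 0.429). NCSTN lay at -0.02 with the effective length offset, and PSEN2 ran from 0.000591 (without CASM34 replicate 1) to 0.29 (without CASM34 replicate 2). The median of the cleavage genes was -0.02, with 4 above and 5 below 0.

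Of 12 tested genes for endocytosis and turnover, 0 passed in edgeR. DTX2, a Deltex ubiquitin ligase gene, lay at 0.28 (SE 0.07, edgeR adjusted p = 0.0583), the epsin gene EPN1 at 0.15 (SE 0.05, edgeR adjusted p = 0.110) and ITCH, whose ligase acts on Notch receptors, at -0.14 (SE 0.05, edgeR adjusted p = 0.155). The nuclear activation complex also had 0 of 8 genes past the test in edgeR, with a median of 0.00 (0.00392). Its acetyltransferase gene KAT2A lay at 0.09 (SE 0.05, edgeR adjusted p = 0.337), SNW1 at -0.08 (SE 0.05, edgeR adjusted p = 0.403) and the Mastermind gene MAML2 at 0.10 (SE 0.13, edgeR adjusted p = 0.755). MAML2 turned to -0.09 with the effective length offset. Of 11 corepressor genes 0 passed in edgeR. TLE2, a Groucho family corepressor that binds HES proteins, lay at 0.27 (SE 0.09, edgeR adjusted p = 0.141) and the histone deacetylase gene HDAC2 at -0.12 (SE 0.04, edgeR adjusted p = 0.177).

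By GC content, the wider pathway divided much as all tested genes did. Of the 18 tested pathway genes at 60% GC or more, 17 were above 0 and their median was 0.22 on the log2 scale, and 2194 of all 2461 such genes were above 0. Of the 41 under 60%, 17 lay above 0, with a median of -0.01, and 5616 of all 13234 such genes lay above 0. With the GC and length offset 23 of the 59 lay above 0 and the median was -0.03. Among the genes named above, DLK2 (-0.01), FURIN (-0.12) and KAT2A (-0.04) then lay below 0, as did HES4, HES6 and NRARP.

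**Figure D5:**
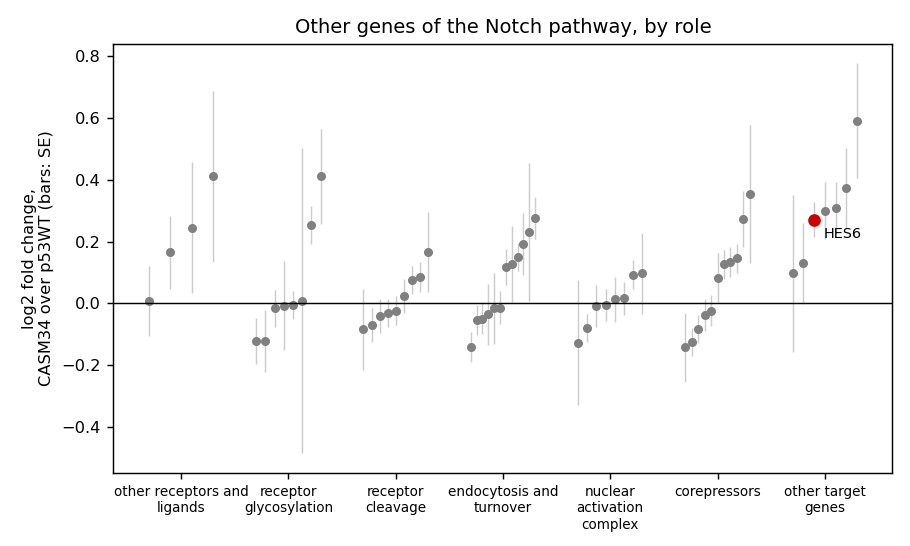
Log2 fold change of CASM34 over p53WT with its SE for 59 tested pathway genes other than the 10, grouped by role and ordered within each group. HES6 (red) is the gene with edgeR adjusted p under 0.05, and all 7 genes listed as other target genes, HES6 among them, lie above 0 in this fit without a GC offset.

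Genes whose pattern over the 4 libraries was most like NOTCH1 were found by the root mean square difference of centred log2 CPM among 9933 genes at 10 CPM or more. The nearest were FBRSL1, FAM193B, UBALD1 and PORCN, at distances of 0.0116 to 0.0134, and PORCN encodes an acyltransferase of Wnt proteins. Their GC content ran from 58.8% to 68.9%. The genes nearest to MIB2 were C1QL1, FDXR, C1orf122 and CYFIP2, at distances of 0.00697 to 0.0226. FDXR, a mitochondrial ferredoxin reductase gene, and CYFIP2, a gene of the WAVE actin complex, are both known p53 targets. Their log2 fold changes were 0.46 (SE 0.05) and 0.43 (SE 0.05), beside 0.44 for MIB2, a match that follows from choosing genes by their pattern. GC content was 69.3% for C1QL1, 63.5% for FDXR, 66.4% for C1orf122 and 53.2% for CYFIP2. With 4 libraries such a likeness is a description.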

How the data were processed

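Poly(A) RNA of 4 libraries (p53WT 2, CASM34 2, grouped by their labels) was read from gene tables that, per the submitters' processing notes, came from Trim Galore, STAR and RSEM on GRCh38. Not given in the sources used here are tool versions, annotation release and strand setting. The deposited expected counts are estimated fragments per gene, not normalized, and 8.63% to 9.26% of genes per library held fractions (tolerance 0.001). The deposited TPM divides by RSEM effective length and scales to the library total, per the file headers. Lengths follow the transcript mix that RSEM estimated. FPKM was not used.

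Expected counts were rounded and tested with edgeR 4.0.16 (R 4.3.3, TMM, filterByExpr with a minimum count of 10, quasi-likelihood F test, group as the only term). Of 61852 genes 15965 were tested, and p-values were adjusted over all of them at 0.05. SE was taken as |log2 fold change| over the root of the F statistic. Symbols and coordinates came from gene IDs and GENCODE 29, matched without the ID version. Printed gene IDs keep the version of the deposited annotation, which is not that of GENCODE 29 for every gene. NOTCH1 has 16 transcripts in the deposited annotation and 5 in GENCODE 29, while NOTCH3 has 6 in both. GC content is the mean over matched GENCODE 29 transcripts, weighted by length. The GC and length offset fitted each library's deviation on GC content and effective length with splines (5 degrees of freedom each). Alternatives included DESeq2 1.42.0 and limma 3.58.1. Named genes were the 10, the 3 smallest adjusted p-values in each role group and the 4 nearest patterns to NOTCH1 and to MIB2, and 1 gene that this rule names is not reported here. The genes, lists and tests were chosen with earlier results of these data known. Scripts were tested on simulated data. Fragment counts within a group differed by more than Poisson error (chi-square per degree of freedom 3.86 in p53WT and 3.92 in CASM34), so no library was a duplicate. The level of p53 RNA was not analysed here.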

Additional observations from a re-analysis of the deposited data

How the results depend on the processing

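The number of genes changed in CASM34 was 312 in edgeR, and it was 777 with no filter on low counts, 45 with the GC and length offset, 3 with the effective length offset (1901 at an unadjusted p under 0.05) and 0 in limma on log2(TPM + 1) and on log2(TPM + 0.1) (1820 and 1811 at an unadjusted p under 0.05). Leaving out 1 library gave 109 (without p53WT replicate 1) to 919 (without CASM34 replicate 2). The number of wider Notch pathway genes changed, 1 in edgeR, was 5 with no filter on low counts, 3 at a mean CPM of at least 1 and 0 in DESeq2, in both limma fits and with either offset (11 in DESeq2 and 7 in the others at an unadjusted p under 0.05), and 0 to 4 with 1 library left out. With a replicate block on the library numbers these counts were 1159 and 8. Over all tested genes, libraries with the same number did not deviate together (correlation 0.0335). With 2 libraries per group this cannot show whether they shared a preparation, and the labels give only the number. NOTCH3 turned to -0.0250 in limma on log2(TPM + 1), to -0.0299 in limma on log2(TPM + 0.1) and to -0.0324 with the effective length offset, where TPM and the offset divide by its longer length in CASM34. Under the GC and length offset HES6 was at -0.0743. NOTCH3 ran from 0.46 to 0.63 with 1 library left out, and MIB2 from 0.41 to 0.46. In the same fits JAG2 ran from 0.24 to 0.38 and NOTCH1 from 0.29 to 0.37. The 10 genes were picked with this contrast known, so these values are a description. NOTCH1 (0.33) was not past the threshold in DESeq2, where 160 of 15965 genes were higher and 53 lower. None of the 10 was past it with either offset or in limma on TPM. With the effective length offset MIB2 was at 0.49 and NOTCH1 at 0.37. In limma on log2(TPM + 1) MIB2 was at 0.48 and NOTCH1 at 0.31. A library left alone in its group is assumed in these fits to vary like the other group. With 1 library left out, DLL1 ran from 0.17 to 0.45 and HEY1 from -0.40 (without p53WT replicate 2) to -0.000722 (without p53WT replicate 1). NCSTN turned to -0.0159 and -0.0161 and MAML2 to -0.0575 and -0.0837 in the limma fits, with neither past the threshold in any of them. Median-of-ratios and library total scaling changed no direction among the 10 genes. The cause of the other changes was not tested.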
